A study of Mus musculus with 6 samples.

Results

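Amino acid carriers of 7 solute carrier families (SLC1, SLC3, SLC6, SLC7, SLC36, SLC38 and SLC43) were followed in mouse spleen macrophages, as the labels call the sorted cells, that did or did not hold label from engulfed human mesenchymal stromal cells (MSCs). Members were all genes whose deposited symbol falls in these families and whose estimated counts over the 6 libraries sum to at least 60. The rule found 35 of the 21847 genes in the table, and all 35 passed the filter on low counts. Of these, 32 are carrier or carrier-like genes and 3 (Slc7a6os, Slc36a1os and Slc36a3os) are named for the strand opposite a carrier and are not carriers. A further 20 genes of the families were under the minimum, with Slc1a3 (57 counts) and Slc36a3 (52) just below it and Slc6a18 (68) and Slc36a1os (72) just above it. Slc6a4, Slc6a8 and Slc43a3 carry serotonin, creatine and purine bases rather than amino acids, and are members by family name.

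Per the labels, cells from mouse spleen depleted of T cells were cultured for 3 days on human cord tissue MSCs that had been loaded with Qtracker, a fluorescent quantum dot label. Cells were then stained for CD11b and Ly6G and sorted as Qtracker positive, taken by the series as engulfing cells, or Qtracker negative, with 3 libraries in each group. Both groups therefore met MSCs and the same stain. The labels disagree on the gate, naming exclusion of Ly6G positive cells once and a lack of Ly6C elsewhere, so it is uncertain. The series design calls the libraries paired biological triplicates, numbered 1 to 3. No strain, age, sex or pooling of the mice is given there.

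Cells take up amino acids through carriers in the plasma membrane and move those freed by protein breakdown out of lysosomes through carriers in the lysosomal membrane. Several SLC7 carriers work only as light chains bound to the heavy chain Slc3a2, also called CD98. In macrophages, which digest what they engulf, carriers supply arginine to arginase and nitric oxide synthase and cystine to glutathione synthesis, and lysosomal amino acids signal to the growth kinase mTORC1.

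Libraries held 33943090 to 55506993 estimated counts, of which members took 0.195% to 0.209% in the negative group and 0.34% to 0.39% in the positive group. Replicate 1 stood apart from replicates 2 and 3 in both groups, so values are given for each library and each pair. Summed CPM (counts scaled to library size) of 10 macrophage markers were 1059, 13374 and 13253 in negative replicates 1, 2 and 3 and 28313, 36960.5 and 39319 in the positive replicates, and 7 of the 10 rose. Sums over 12 neutrophil markers were 3267, 66346 and 66499 against 1430.5, 2139.8 and 2204 CPM, and over 8 B cell markers 22076, 10576 and 10529 against 903, 966 and 878 CPM, with 9 of 12 and 8 of 8 lower. The negative libraries thus held much RNA of neutrophils and B cells despite their label, and these were bulk samples, in which fewer cells of a type and less RNA per cell cannot be told apart. Sums over NK cell markers (5 of 6 tested lower, 8.1 to 39.1 CPM in negative and 0.93 to 6.21 CPM in positive libraries) and dendritic cell markers (3 of 4 lower, 24.6 to 60.6 and 2.89 to 4.68 CPM) were far smaller, and erythroid markers gave 1.28 to 4.17 and 0.661 to 3.26 CPM with 0 of 2 tested called. No macrophage, neutrophil or B cell marker was at 0 in all 3 libraries of a group, although Ly6g was at 0 in positive replicate 2. The 5 stromal cell markers in the table, tracked because human MSC RNA could be counted on mouse genes, summed to 1.79 to 4.86 CPM in negative and 2.68 to 3.38 CPM in positive libraries, with Lum at 0 in all positive libraries. Reads of human origin were not tested.

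Of the 35 members, 13 rose and 6 fell in Qtracker positive relative to negative libraries (adjusted p under 0.05 over all genes by edgeR's quasi-likelihood test, replicate blocked). That is 37.1% higher and 17.1% lower, beside 18.5% and 16.3% of the 14605 genes tested (34.9% in either direction). All 19 are carriers. The 13 that rose were Slc36a1, Slc36a2 and Slc36a4, the heavy chain Slc3a2 with its light chains Slc7a7, Slc7a8 and Slc7a11, Slc38a6, Slc38a7 and Slc38a10, Slc43a2, and the taurine and creatine carriers Slc6a6 and Slc6a8. The 6 that fell were Slc1a5, Slc7a3, Slc43a1, Slc6a4, Slc6a12 and Slc6a13. The median log2 fold change of the 32 carriers was 0.49, against -0.010 over all genes tested, and was 0.76, 0.56 and 0.50 in pairs 1, 2 and 3. Scaling by library totals alone, which shifted the median of all genes to -0.36, gave 10 higher and 8 lower members, beside 10.8% higher and 22.7% lower of all genes.

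Summed per length over the 32 carriers (CPM per kilobase of exon), the level was 346, 373 and 369 in negative replicates 1, 2 and 3 and 764, 789.8 and 771 in the positive replicates. The sum was thus higher in every positive library than in every negative one, and each group's libraries lay close together. By level per length, Slc1a5 (59.6 ± 29, SD, n = 3), Slc6a6 (45.4 ± 19.9) and Slc38a2 (42.4 ± 4.75) had the highest means in the negative group, and their spreads overlapped. In the positive group Slc6a6 (149 ± 34.3), Slc43a2 (136 ± 51.9) and Slc7a8 (87.9 ± 15.1) led, with overlapping spreads between Slc6a6 and Slc43a2 and between Slc43a2 and Slc7a8. Slc1a5, at the top in the negative group, ranked 10 of 32 in the positive group.

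The calls depended on which pairs were used. All 19 kept their direction when any single replicate was left out. They had little room to reverse, because each had the same sign in all 3 pairs, as did 72.7% of all genes tested. Without replicate 2 the calls of Slc36a2, Slc6a8 and Slc7a11 remained (adjusted p over the 19 from 0.0456 to 0.18), and 2.1% of all genes were called. Without replicate 3 edgeR called 0 of all genes (0%), and the 19 members called in the main fit had adjusted p from 0.0514 to 0.184. In that fit without replicate 3, an unadjusted p under 0.05 was found for 4209 of 14803 genes. It was found for 19 members too, but these are not all the same genes as the 19 called in the main fit. Without replicate 1, when 72.9% of all genes were called, 17 members were higher and 12 lower, the 19 calls among them. Replicates 2 and 3 were close to each other, with median absolute log2 differences of 0.0549 and 0.0855 in the negative and positive groups over genes with mean counts of 500 to 2000, against 0.449 to 0.454 and 0.286 to 0.296 to replicate 1. No label ties the replicates to separate animals, and the p-values therefore rest on a spread that may be partly technical.

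**Figure D1:**
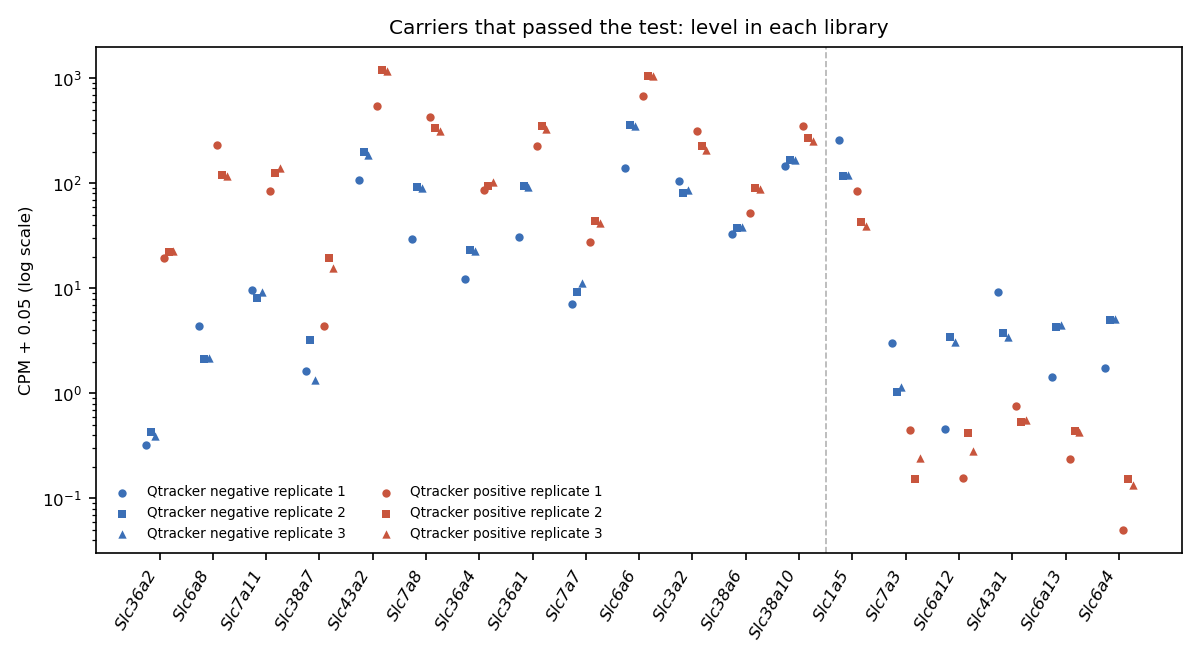
CPM plus 0.05 (vertical, log scale) of the 19 carriers that passed the test in each of the 6 libraries, blue for Qtracker negative and red for Qtracker positive, with a marker shape for each replicate number. Left of the dashed line are the 13 that rose and right of it the 6 that fell, ordered by log2 fold change, and for each gene the 3 red points lie on one side of the 3 blue points. The genes shown were picked by the test on these same values. Of all 14605 genes tested, 59.4% had no overlap of CPM between the groups.

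All 3 measured SLC36 carriers rose. These carriers move small neutral amino acids, mostly together with protons, and Slc36a1 (PAT1) sits largely in the lysosomal membrane. Slc36a2 (PAT2), a carrier of glycine, alanine and proline on chromosome 11, 55158470 to 55185077 (mm10), stood at 0.275, 0.381 and 0.344 CPM in Qtracker negative replicates 1, 2 and 3 and at 19.6, 22.1 and 22.6 CPM in the Qtracker positive replicates. The negative libraries were thus near the detection limit, with 12 to 17 counts each, against 740 to 1087 counts in the positive libraries. Its log2 fold change was 6.00 ± 0.18 (standard error), or 64.1-fold, with adjusted p = 0.00585, and it was 5.94, 5.70 and 5.87 in pairs 1, 2 and 3. Values given hereafter with ± and an adjusted p are log2 fold changes, positive over negative, with their standard errors.

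Slc36a1, near Slc36a2 on chromosome 11, 55204350 to 55236330, stood at 31.1, 93.3 and 91.7 CPM in Qtracker negative replicates 1, 2 and 3 and at 229, 349 and 332 CPM in the Qtracker positive replicates. Negative replicate 1 was the lowest library, and the groups did not overlap (2.21 ± 0.28, adjusted p = 0.016). Slc36a4 (PAT4), a carrier of proline and tryptophan on chromosome 9, 15709738 to 15743361, was also lowest in negative replicate 1. It stood at 12.2, 23.3 and 22.7 CPM in Qtracker negative replicates 1, 2 and 3 and at 85.7, 94.6 and 103 CPM in the Qtracker positive replicates (2.34 ± 0.21, adjusted p = 0.0104). Per length, Slc36a1 held 74.4%, 82.3% and 82.5% of the family's summed level in negative replicates 1, 2 and 3 and 66.7%, 73.3% and 71% in the positive replicates. The share of Slc36a2 was 1.46%, 0.746% and 0.687% and then 12.7%, 10.3% and 10.8%. Slc36a1 therefore remained the main member of the family although Slc36a2 had the larger fold change.

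In the RefSeq window of 250 bases before to 50 after its start (GRCm38.p6), Slc36a1 held the letters CACGTG, the E-box core bound by the lysosomal gene regulators TFEB and TFE3, at 2 places. The stretch around the match farther from the start, chr11:55204294-55204329 on the plus strand, is shown because a lysosomal carrier rose here, with the match in capitals.
Slc36a1: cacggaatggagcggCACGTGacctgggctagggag
CACGTG, which reads the same on both strands, was found in 7.15% of all 32851 windows and in 3 of the 24 members with a window. These were Slc36a1 and Slc38a7, which rose, and Slc43a1, which fell. The longer CLEAR sequence, which contains CACGTG and was searched by its consensus, was in 0.326% of windows and in 0 of the 24 members. Here and below, a member counts if any of its windows holds the letters, and the 24 members have 39 windows. The share over all windows is per single window, so the 2 measures are unlike. A match describes letters only and shows no binding.

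The heavy chain and most of its measured light chains rose, but LAT1, the most abundant light chain of the negative group, did not pass the test. Slc3a2 (CD98, chromosome 19, 8706882 to 8723369) stood at 105, 81.3 and 86.6 CPM in Qtracker negative replicates 1, 2 and 3 and at 314, 226 and 209 CPM in the Qtracker positive replicates. All positive libraries were above all negative ones (1.44 ± 0.13, adjusted p = 0.0104).

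Slc7a11 (xCT), which exchanges glutamate for cystine and so feeds glutathione synthesis, lies on chromosome 3, 49892526 to 50443614. It stood at 9.65, 8.06 and 9.17 CPM in Qtracker negative replicates 1, 2 and 3 and at 85.2, 126 and 139 CPM in the Qtracker positive replicates. The negative libraries lay close together and the groups were far apart, a 12.8-fold difference (3.68 ± 0.24, adjusted p = 0.00737). Among the glutathione enzymes, the synthesis genes Gclc (1.09 ± 0.17), Gclm (1.73 ± 0.24) and Gss (1.25 ± 0.15) rose with it, with adjusted p of 0.0211, 0.0178 and 0.0144; these genes were picked from a longer list after their values were seen.

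Slc7a11 is known as a target of ATF4, which acts through a C/EBP-ATF sequence in amino acid shortage. The letters TGATGNAA (or TTNCATCA, its reverse) stood before its start at 2 places, in opposite directions. The stretch chr3:50443638-50443694, printed along the minus strand with matches in capitals, shows that arrangement.
Slc7a11: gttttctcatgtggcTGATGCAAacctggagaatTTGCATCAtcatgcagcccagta
TGATGNAA was in 3.97% of all windows and in 3 of the 24 members with one, namely Slc7a11 and Slc7a7, which rose, and Slc1a4, which did not pass the test. TGACNNNGC, the antioxidant response letters of NRF2, searched on both strands, was in 12.4% of windows and in 8 of 24 members, among which Slc36a1 rose and Slc43a1 and Slc6a13 fell. The Slc7a11 window held no TGACNNNGC, but sequence outside the window was not searched. Atf4 RNA itself did not pass the test (0.50 ± 0.24, adjusted p = 0.173). It was called higher without replicate 1 (adjusted p = 0.00507), when 72.9% of all genes were called. ATF4 protein was not measured, and its part in the Slc7a11 rise was not tested.

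Slc7a8 (LAT2, chromosome 14, 54722209 to 54781946), a carrier of small and large neutral amino acids, stood at 29.7, 93.1 and 89.2 CPM in Qtracker negative replicates 1, 2 and 3 and at 429, 333 and 315 CPM in the Qtracker positive replicates. Negative replicate 1 was low and positive replicate 1 high, so the log2 change was 3.85 in pair 1 and 1.84 and 1.82 in pairs 2 and 3. The fitted change was 2.48 ± 0.54, adjusted p = 0.0391, and 1.84 without replicate 1. Slc7a7 (y+LAT1), which exchanges cationic for neutral amino acids and whose loss in lysinuric protein intolerance disturbs macrophages, stood at 7.06, 9.23 and 11.3 CPM in Qtracker negative replicates 1, 2 and 3 and at 27.7, 43.8 and 42.3 CPM in the Qtracker positive replicates. Its change was alike in the 3 pairs (2.04 ± 0.14, adjusted p = 0.00738), but an exon overlaps Oxa1l on the other strand, and the sources do not say if reads were counted by strand.

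Slc7a5 (LAT1), the carrier of leucine and other large neutral amino acids, stood at 124, 100.4 and 100.01 CPM in Qtracker negative replicates 1, 2 and 3 and at 152, 36.7 and 35.6 CPM in the Qtracker positive replicates. It was lower in positive replicates 2 and 3 but not in replicate 1, and the groups overlapped (-0.90 ± 0.45, adjusted p = 0.192). Without replicate 1 it was lower (-1.46, adjusted p = 4.76e-06). Slc7a6 (y+LAT2) had 5.69, 5.13 and 6.6 CPM against 3.44, 7.01 and 8.6 CPM, a difference within the spread (0.044 ± 0.33, adjusted p = 0.925); without replicate 1 it was called higher (0.43, adjusted p = 0.0172).

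Per length, Slc7a5 made up 74%, 50.1% and 49.7% of the summed level of the 5 light chains in negative replicates 1, 2 and 3 and 25.6%, 8.47% and 8.45% in the positive replicates. Slc7a8 made up 15.2%, 40% and 38.1% and then 62.5%, 66.1% and 64.4%. The leading light chain transcript was thus Slc7a5 in every negative library and Slc7a8 in every positive one. For either share the exact permutation test (two-sided, 3 against 3, pairing ignored) gave p = 0.1, the smallest it allows. Any share without overlap between the groups gives that value. Slc7a11 held 2.05%, 1.44% and 1.63% and then 5.14%, 10.4% and 11.8%. The summed light chain level per length was 47.8, 57 and 57.3 CPM per kb in the negative and 168, 123 and 119.7 CPM per kb in the positive replicates, and that of Slc3a2 34.8, 26.9 and 28.7 and then 104, 74.9 and 69.3 CPM per kb. The light to heavy ratio was 1.38, 2.12 and 2.00 in the negative and 1.62, 1.65 and 1.73 in the positive replicates, so the groups overlapped in this ratio while both parts were higher in positive cells.

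**Figure D2:**
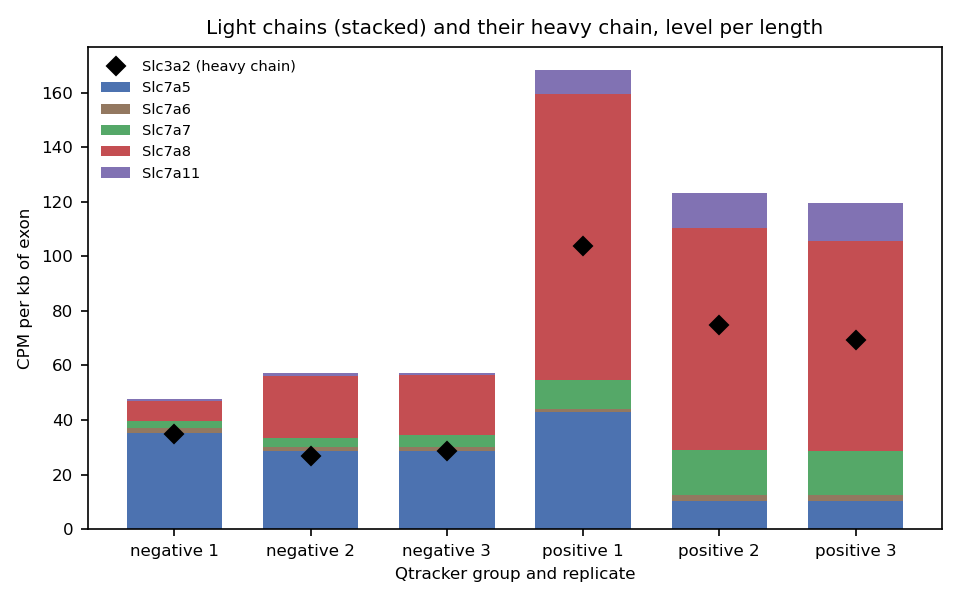
Stacked bars give the level per length (CPM per kb of exon, from 0) of the 5 light chains in each library, and black diamonds that of the heavy chain Slc3a2 on the same axis. Slc7a5 (blue) is the tallest part in the 3 negative libraries and Slc7a8 (red) in the 3 positive ones.

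The cationic carriers that need no heavy chain bring in arginine, lysine and ornithine. Of the 4 measured, 1 fell and 3 did not pass. Slc7a1 (CAT1), the general arginine carrier, stood at 87.5, 65.9 and 63.2 CPM in Qtracker negative replicates 1, 2 and 3 and at 140.3, 56.7 and 54.6 CPM in the Qtracker positive replicates. It was high in positive replicate 1 only, and the groups overlapped (0.083 ± 0.24, adjusted p = 0.804). Without replicate 1 it was lower by a small margin (-0.20, adjusted p = 0.00938). Slc7a2 (CAT2), the carrier induced in activated macrophages, stood at 1.03, 0.515 and 0.451 CPM in Qtracker negative replicates 1, 2 and 3 and at 11.2, 1.12 and 1.48 CPM in the Qtracker positive replicates. Positive replicate 1 was far above the other positive libraries (2.10 ± 0.60, adjusted p = 0.0643). Exons of Slc7a2 overlap Gm26584 on the other strand. The arginase genes, which use arginine and were picked after their values were seen, were ordered differently over the positive replicates. Arg1 rose, with 3933, 317 and 341 CPM against 100.4, 43 and 41.1 CPM and positive replicate 1 on top (3.71 ± 0.66, adjusted p = 0.0272), while Arg2 had 16.9, 40.5 and 45.2 CPM against 1.65, 22.5 and 24.8 CPM, with positive replicate 1 the lowest of its group, and did not pass (1.61 ± 0.64, adjusted p = 0.124). Without replicate 1 the Slc7a2 change was 1.42 (adjusted p = 0.0112), so it depended on that pair for its size. Slc7a3 (CAT3) fell, from 2.93, 0.985 and 1.1 to 0.397, 0.102 and 0.19 CPM (-2.86 ± 0.37, adjusted p = 0.016, and -3.98 on the authors' normalized values). Slc7a4, a relative with no established transport activity, was at 0.252, 0.47 and 0.215 and 1.4, 0.835 and 1.08 CPM (1.85 ± 0.52, adjusted p = 0.063), and was called without replicate 1 (1.54, adjusted p = 0.0319).

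Of 6 SLC38 carriers, Slc38a6, Slc38a7 and Slc38a10 rose, whereas Slc38a1, Slc38a2 and Slc38a9 did not pass. Slc38a7 (SNAT7, chromosome 8, 95835920 to 95853539), which exports glutamine and asparagine from lysosomes, stood at 1.58, 3.16 and 1.29 CPM in Qtracker negative replicates 1, 2 and 3 and at 4.34, 19.6 and 15.6 CPM in the Qtracker positive replicates. The positive libraries were higher but spread widely (2.57 ± 0.51, adjusted p = 0.0324). On the authors' normalized values its change was smaller (1.76, limma, adjusted p = 0.0159), and with library totals alone it missed the threshold (adjusted p = 0.0518).

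Slc38a6 (SNAT6) stood at 32.5, 37.7 and 38.2 CPM in Qtracker negative replicates 1, 2 and 3 and at 52.3, 90.8 and 89.1 CPM in the Qtracker positive replicates (1.06 ± 0.17, adjusted p = 0.023), and Slc38a10 (SNAT10) at 147, 168 and 166 CPM in Qtracker negative replicates 1, 2 and 3 and at 352, 268 and 255 CPM in the Qtracker positive replicates (0.85 ± 0.19, adjusted p = 0.0406). For each of these genes the 3 positive libraries lay above the 3 negative ones. Scaling by library totals alone lost the calls of Slc38a6 and Slc38a10 too (adjusted p = 0.0818 and 0.0673), and Slc38a6 had a log2 fold change of 2.19 on the authors' normalized values. An exon of Slc38a10 overlaps Gm11769 on the other strand.

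Slc38a2 (SNAT2), a glutamine and alanine carrier of the plasma membrane that is induced in amino acid shortage, stood at 172, 209 and 211 CPM in Qtracker negative replicates 1, 2 and 3 and at 137, 97.2 and 104 CPM in the Qtracker positive replicates. All positive libraries were below all negative ones, but the call was missed (-0.82 ± 0.21, adjusted p = 0.0535). It was lower without the replicate block (adjusted p = 0.0177) and without replicate 1 (-1.05, adjusted p = 1.38e-05). Slc38a1 (SNAT1) had 235, 174 and 172 against 151, 167 and 169 CPM (-0.24 ± 0.18, adjusted p = 0.348), with replicates 2 and 3 nearly equal between the groups. Slc38a9, the lysosomal arginine sensor of mTORC1, had 36.1, 28.7 and 28.4 against 25.2, 30.3 and 31.5 CPM, which overlapped (-0.095 ± 0.19, adjusted p = 0.711).

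In the SLC43 family, facilitators of large neutral amino acids, members moved in opposite directions. Slc43a2 (LAT4, chromosome 11, 75531694 to 75577575) stood at 108, 198 and 187 CPM in Qtracker negative replicates 1, 2 and 3 and at 546, 1199 and 1185 CPM in the Qtracker positive replicates. Replicate 1 was lowest in both groups, and the change was alike in the pairs (2.53 ± 0.17, adjusted p = 0.00738). Its exons overlap Gm45606 on the other strand. Slc43a1 (LAT3, chromosome 2, 84838850 to 84863594) fell from 9.24, 3.67 and 3.37 to 0.714, 0.489 and 0.507 CPM (-3.11 ± 0.33, adjusted p = 0.0128) and was highest in negative replicate 1. Slc43a3, the purine base carrier, stood at 21.6, 51.1 and 47.8 CPM in Qtracker negative replicates 1, 2 and 3 and at 21.7, 8.15 and 7.5 CPM in the Qtracker positive replicates. The log2 change was 0.0064 in pair 1 but -2.64 and -2.66 in pairs 2 and 3, and it did not pass (-1.82 ± 0.71, adjusted p = 0.121). It was lower without replicate 1 (-2.65, adjusted p = 2.90e-06) and without the replicate block (adjusted p = 0.0465).

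The SLC6 family of sodium- and chloride-coupled carriers held large changes in both directions, from Slc6a4 at -6.03 ± 0.65 to Slc6a8 at 5.80 ± 0.13. Slc6a8 (chromosome X, 73673150 to 73682502), which takes up creatine, stood at 4.33, 2.06 and 2.11 CPM in Qtracker negative replicates 1, 2 and 3 and at 229.9, 120.1 and 118 CPM in the Qtracker positive replicates. Every positive library was far above the negative ones, a 55.6-fold difference (5.80 ± 0.13, adjusted p = 0.00585), alike in the 3 pairs (5.71, 5.83 and 5.77). Other creatine genes, picked after their values were seen, included Ckb, the brain-type creatine kinase (2.55 ± 0.16, adjusted p = 0.0071), and Gamt, the last enzyme of creatine synthesis (2.00 ± 0.19, adjusted p = 0.011), which rose, while Gatm, the enzyme before it, did not pass (0.55 ± 0.35, adjusted p = 0.282).

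Slc6a6 (chromosome 6, 91684053 to 91759066), the taurine carrier and the member with the most counts, stood at 139, 357 and 348 CPM in Qtracker negative replicates 1, 2 and 3 and at 677, 1049 and 1041 CPM in the Qtracker positive replicates. Negative replicate 1 was the lowest, and the groups did not overlap (1.81 ± 0.23, adjusted p = 0.0162). The taurine synthesis genes Cdo1 (1.75 ± 0.44, adjusted p = 0.0502) and Csad (0.31 ± 0.35, adjusted p = 0.513), also picked after their values were seen, did not pass. Slc6a19, the neutral amino acid carrier of gut and kidney, was low throughout, with 1 to 18 counts in negative and 50 to 65 in positive libraries. Its change was 3.87 ± 0.97, adjusted p = 0.0504, and 5.47 (adjusted p = 3.17e-04) without replicate 1, where 2 negative libraries of 1 count each remained. DESeq2 called it higher as well (4.20, adjusted p = 0.0017), and its size depends on the fit.

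The 3 SLC6 members that fell were low in expression. Slc6a4 (chromosome 11, 76998603 to 77032340), the serotonin carrier, had 74, 220 and 236 counts in negative replicates 1, 2 and 3 and 0, 5 and 4 in the positive replicates. Its level was 1.7, 4.93 and 5.07 CPM against 0, 0.102 and 0.0845 CPM, and the fitted -6.03 ± 0.65, adjusted p = 0.0128 depends on the prior count because 1 library is at 0. Slc6a13 (GAT2), a carrier of GABA and taurine, fell from 1.38, 4.28 and 4.38 to 0.185, 0.387 and 0.38 CPM (-3.30 ± 0.32, adjusted p = 0.0113). Slc6a12 (BGT1), the betaine carrier near it on chromosome 6, went from 0.413, 3.43 and 3.01 to 0.106, 0.367 and 0.232 CPM (-3.04 ± 0.50, adjusted p = 0.0234). For these 3 genes negative replicate 1 was the lowest of its group, though still above the positive libraries.

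Most markers of neutrophils, B cells, T cells, NK cells and dendritic cells were lower in the positive group as well. So were the basophil and mast cell genes of a list of 8, while its eosinophil genes went both ways. The neutrophil sum was 3267 CPM in negative replicate 1 and 66346 and 66499 CPM in replicates 2 and 3, against 1430.5 to 2204 CPM in the positive group. The 8 eosinophil, basophil and mast cell markers summed to 70.8, 373 and 381 CPM and then 85.1, 324 and 255 CPM, so this sum was higher in positive replicate 1 and lower in positive replicates 2 and 3. Of the 8, Mcpt8, Cpa3, Fcer1a, Ms4a2 and Siglecf fell, by log2 fold changes from -6.12 to -2.77, and the eosinophil genes Epx (3.82 ± 0.32), Prg2 (2.68 ± 0.15) and Ear6 (3.85 ± 0.22) rose. Fcer1a and Ms4a2 were at 0 in positive replicate 1. The part of any of these cell types in the SLC6 falls was not tested. Slc6a9, the glycine carrier, had 6.72, 7.43 and 6.27 against 4.15, 0.876 and 0.951 CPM and did not pass (-2.17 ± 0.62, adjusted p = 0.0645), but was lower without replicate 1 (-2.89, adjusted p = 1.00e-04). Its exons overlap Ccdc24 and Gm17114 on the other strand. Slc6a18 was under 1 CPM in every library (-1.28 ± 0.60, adjusted p = 0.172).

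Slc1a5 (ASCT2, chromosome 7, 16781340 to 16798274), the neutral amino acid exchanger known for glutamine uptake by dividing cells, stood at 257, 118 and 119 CPM in Qtracker negative replicates 1, 2 and 3 and at 84.2, 42.5 and 39.2 CPM in the Qtracker positive replicates. Replicate 1 was highest in both groups, all positive libraries were below all negative ones, and the change was alike in the pairs (-1.56 ± 0.11, adjusted p = 0.00806). Its relative Slc1a4 (ASCT1) did not pass (0.13 ± 0.35, adjusted p = 0.795), with 6.28, 2.26 and 1.68 against 11.3, 1.63 and 1.65 CPM and replicate 1 highest in each group. B cell markers were highest in negative replicate 1 as well, at 22076, 10576 and 10529 CPM in the negative and 903, 966 and 878 CPM in the positive replicates. Sums over 8 T cell markers, of which 7 were lower, were 139, 28 and 30.6 and 12.6, 13.9 and 13.8 CPM, with Trac at 0 in positive replicates 2 and 3. Slc7a3 and Slc43a1 shared this order, with their highest level in negative replicate 1. The part of B and T cells in the falls of Slc1a5, Slc7a3 and Slc43a1 was not tested.

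Macrophage markers were higher in the positive group. Their sum was lowest in negative replicate 1 (1059 CPM, against 13374 and 13253 in replicates 2 and 3), and so was the level of 9 of the 13 carriers that rose, all but Slc3a2, Slc6a8, Slc7a11 and Slc38a7. The groups did not overlap for any of the 13, so their lowest library had to be a negative one. Replicate 1 stood apart across genes at large, and the share of all genes lowest in that library was not determined. This count therefore cannot tell whether the carriers follow the macrophage markers. The median log2 fold change of the 10 macrophage markers was 3.69, and 5.06, 3.01 and 3.01 in pairs 1, 2 and 3. In pair 2 the 13 rises ran from 0.68 for Slc38a10 to 5.83 for Slc6a8. Slc36a2, Slc6a8 and Slc7a11 were above the markers' median in that pair, and the other 10 were below it. This order changed with the pair, as Slc7a11 (3.14) was below the markers' median in pair 1 and Slc38a7 (3.55) above it in pair 3. How much of each rise goes with the share of macrophages was not tested.

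**Figure D3:**
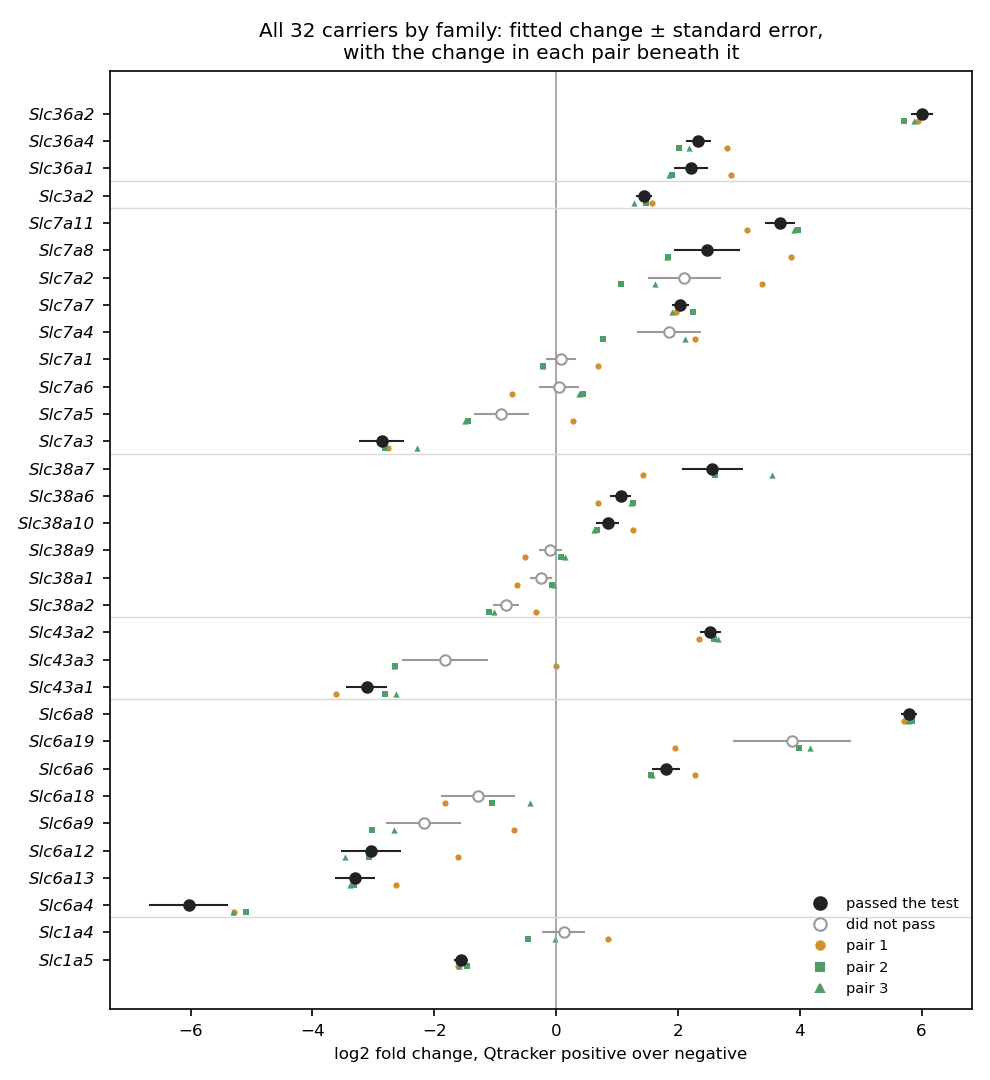
Fitted log2 fold change (horizontal, positive over negative, bars ± standard error) of the 32 carriers by family, filled where the test was passed, with the changes in pairs 1, 2 and 3 as small points beneath. Slc36a2 and Slc6a8 lie farthest right with their pairs close together, whereas the pairs of Slc43a3, Slc7a5 and Slc7a2 are far apart.

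The opposite-strand genes did not pass. Slc7a6os, which encodes a nuclear protein and lies beside Slc7a6, had 31.1, 15.5 and 16 against 18.9, 16.8 and 15.5 CPM (-0.21 ± 0.22, adjusted p = 0.473). Slc36a1os and Slc36a3os were under 1 CPM in every library (log2 fold changes -0.39 ± 0.53 and -1.11 ± 0.42, adjusted p = 0.59 and 0.114), and without replicate 1 Slc36a3os was called lower (adjusted p = 0.0421). In this annotation none of the 3 shares exon bases with a carrier.

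Among 19 other carriers of amino acids and peptides, 18 were tested, of which 8 rose and 1 fell, with a median log2 fold change of 0.79. These shares are 44.4% and 5.56%, beside 18.5% higher and 16.3% lower of all genes tested. Mfsd12, needed for cysteine import into lysosomes and melanosomes, rose from 36.4, 56.4 and 52.3 to 420.2, 381 and 355 CPM (3.01 ± 0.24, adjusted p = 0.00909). Slc32a1, the vesicular carrier of GABA and glycine, rose from 0.0917, 0.582 and 0.645 to 0.978, 7.86 and 7.46 CPM (3.57 ± 0.27, adjusted p = 0.00852). The fall was Slc25a29, a mitochondrial carrier of basic amino acids (-2.59 ± 0.25, adjusted p = 0.0112). The other 6 that rose were Slc15a3, Slc16a10, Slc17a5, Slc25a44, Slc66a1 and Ctns, by 0.92 to 2.79. The lysosomal histidine and peptide carriers Slc15a3 (2.79 ± 0.43, adjusted p = 0.0211) and Slc15a4 (0.065 ± 0.33, adjusted p = 0.889), a pair picked after their values were seen, gave different calls, but the difference between them was not tested. The Slc15a4 log2 differences were -0.80, 0.46 and 0.52 in pairs 1, 2 and 3, and the gene passed without replicate 1 (adjusted p = 2.53e-04).

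Of 36 genes listed for amino acid sensing at the lysosome, 35 were tested, and 12 rose and 2 fell, with a median of 0.33. That is 34.3% higher and 5.71% lower, beside 18.5% and 16.3% of all genes tested. The list also holds genes of mTORC1 itself and of its control by Rheb (Mtor, Rptor, Mlst8, Rheb, Tsc1, Tsc2 and Tbc1d7), which are not sensors. Rheb, Rptor and Tbc1d7 were among the rises. Flcn, the folliculin gene, had 51.6, 48.5 and 48.6 against 125, 163 and 158 CPM (1.58 ± 0.15, adjusted p = 0.0112). Rragd, one of the Rag GTPases that bring mTORC1 to the lysosome, had 5.09, 2.44 and 2.75 against 27.8, 29.3 and 30 CPM (3.16 ± 0.31, adjusted p = 0.0112). Sesn3, a sestrin with 2 positive libraries at 0, fell, and its fitted change (-6.26 ± 1.17, adjusted p = 0.0295) depends on the prior count. With library totals alone there were 8 higher and 5 lower, beside 10.8% higher and 22.7% lower of all genes. The list's median was then -0.020, while the median of all genes was -0.36.

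In the amino acid shortage response, 22 of 24 genes were tested, with 7 higher and 3 lower (median 0.48, and 1.23, 0.17 and 0.30 in pairs 1, 2 and 3). The shares were 31.8% and 13.6%, beside 18.5% and 16.3% of all genes tested. The median was 0.27 without replicate 1, and library totals alone gave 6 higher and 6 lower, beside 10.8% and 22.7% of all genes. Atf3, a stress transcription factor, rose from 7.64, 15.4 and 14.5 to 132, 139.9 and 121 CPM (3.45 ± 0.28, adjusted p = 0.00972), and Gpt2, a mitochondrial alanine aminotransferase, rose by 1.45 ± 0.14 (adjusted p = 0.0111). Pycr1, of proline synthesis (-2.86 ± 0.27, adjusted p = 0.011), and Ddit4, an inhibitor of mTORC1 signalling (-1.09 ± 0.11, adjusted p = 0.0117), fell. Also higher were Atf5 (2.21 ± 0.29), Ddit3 (1.60 ± 0.20), Nupr1 (2.43 ± 0.53), Cebpg (1.09 ± 0.17) and Ppp1r15a (0.47 ± 0.10). Their adjusted p were 0.0164, 0.0157, 0.0397, 0.0218 and 0.0395. Vldlr was lower as well (-3.70 ± 0.40, adjusted p = 0.0129). Asns, the asparagine synthetase that is a standard readout of this response, did not pass (0.15 ± 0.66, adjusted p = 0.873) and was chosen after its value was seen. It had 28.7, 42.3 and 42.6 against 107, 26.5 and 27.3 CPM, higher in positive replicate 1 and lower in replicates 2 and 3, with changes of 1.90, -0.67 and -0.64 in the pairs, and passed without replicate 1 (adjusted p = 3.19e-04).

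Of 20 cytosolic tRNA synthetases, 8 rose and 2 fell (median 0.46), or 40% and 10%, beside 18.5% and 16.3% of all genes tested. Without the replicate block, however, 3 were higher and 2 lower, beside 19.9% and 20.9% of all genes. Wars, which loads tryptophan, rose by 0.84 ± 0.11 (adjusted p = 0.016, and 0.206 without the replicate block), and Rars, which loads arginine, by 1.09 ± 0.19 (adjusted p = 0.0258). Vars, for valine, fell from 538, 251 and 254 to 152, 89.4 and 85.6 CPM (-1.63 ± 0.14, adjusted p = 0.0101), and Farsb, a chain of the phenylalanine enzyme, fell too (-2.41 ± 0.36, adjusted p = 0.0206). Of 34 tested amino acid and glutathione enzymes, 8 rose and 7 fell (median 0.27), shares of 23.5% and 20.6% near those of all genes. Got1, the cytosolic aspartate aminotransferase, rose by 1.27 ± 0.11 (adjusted p = 0.00977), besides Ckb. Ido1 (-5.02 ± 0.46, adjusted p = 0.0104), which degrades tryptophan, and Il4i1 (-3.15 ± 0.52, adjusted p = 0.0235), an oxidase of aromatic amino acids, fell. Without replicate 1, when 37.1% of all genes were higher and 35.8% lower, the higher and lower genes were 12 and 4 among other carriers, 22 and 7 in sensing, 11 and 10 in the shortage response, 13 and 3 among synthetases and 18 and 12 among the 34 enzymes. Without replicate 2 the 1 called gene of these 5 lists was Atf3, and without replicate 3 there was none.

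**Figure D4:**
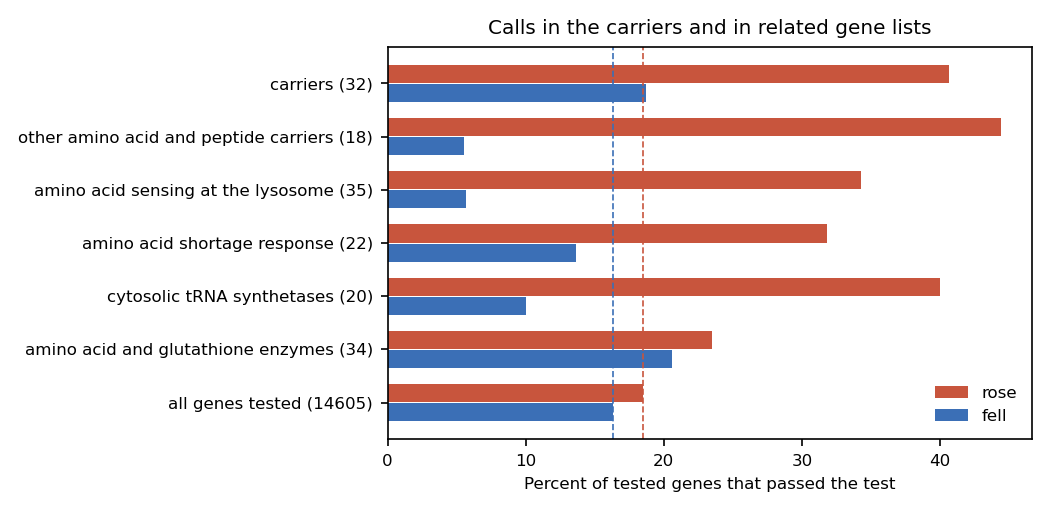
Bars give the percent of tested genes that rose (red) or fell (blue) in the 32 carriers, in 5 related lists (number tested in brackets) and in all 14605 genes, whose shares are the dashed lines. The carriers had 40.6% higher and 18.8% lower.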

How the data were processed

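The data are RNA-seq of 6 libraries, 3 per group, from a stranded kit. The deposited expected counts are whole numbers per gene from the authors, made, per the submitters' processing notes, with FastQC, Salmon and mm10 as listed tools and build. Versions, annotation and strand setting are not given in the sources used here. Besides the counts, the authors' deposited normalized signal equals the count times a factor particular to each gene in each library; its formula is not stated and it was used as an alternative only (log2 with a pseudocount of 1).

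The members and gene lists were chosen with earlier results of these data known. The fit ran on the whole table: filterByExpr by group (minimum count 10, total 15) kept 14605 genes, scaled by TMM and tested by the quasi-likelihood test of edgeR 4.0.16 (R 4.3.3) with replicate as a block and Benjamini-Hochberg adjusted p under 0.05. Standard errors come from the F statistic. CPM use TMM-scaled totals, and pair changes use log2 CPM with a prior count of 2. Lengths are merged exons of GENCODE M21 (the mm10 assembly). Promoter windows are from RefSeq (GRCm38.p6), with 24 of 35 members matched. The pairing comes from the series design text. Libraries with the same number deviated from their groups with correlations of 0.198, 0.0769 and 0.158 across genes, and not every one exceeds 0.1. Unmatched libraries gave 0.147 (negative 2 with positive 3) and 0.116 (negative 3 with positive 2), both above the matched value of replicate 2. Unmatched values that involve replicate 1 were negative. The correlations thus set replicate 1 apart but do not tell pairs 2 and 3 from each other. The fit was tested on simulated counts.

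Given with the value in every library were members that passed the test, the 5 others highest per length and a fixed set of known carriers; from each list the 2 called genes with the lowest p in each direction were named, except for 1 gene that is not reported here. Alternatives were median-of-ratios, upper quartile and library total scaling, no filter, a filter of 50 counts in 3 libraries, DESeq2 1.42.0, limma-voom (limma 3.58.1), the authors' normalized values, no replicate block and each replicate left out. The figures were drawn with matplotlib 3.10.9.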

Additional observations from a re-analysis of the deposited data

How the results depend on the processing

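The 13 higher and 6 lower members became 0 to 17 and 0 to 12 when 1 replicate was left out, with fewer libraries in each fit. Other alternatives gave 10 to 16 higher and 5 to 9 lower. Over all genes, these alternatives called 10.8% to 23.4% higher and 9.2% to 25.1% lower. The 19 called members kept their direction in every alternative in which they were tested (17 of them under the stricter filter). Each had the same sign in every pair, which left little room to reverse when a replicate was dropped. Without the replicate block, 14 were higher and 8 lower, beside 19.9% and 20.9% of all genes, and the 19 calls remained; the calls that it added were Slc38a2, Slc43a3 and Slc7a4. DESeq2, which called 48.5% of all genes, added Slc38a2, Slc43a3, Slc6a19, Slc6a9, Slc7a2 and Slc7a4, and Slc38a2 was called in 7 alternatives that kept all libraries. Library totals alone lost Slc38a6, Slc38a7 and Slc38a10. Reversals were seen only in members that had not passed. With upper quartile and library total scaling the log2 change was -0.018 and -0.22 for Slc1a4, -0.060 and -0.27 for Slc7a1 and -0.10 and -0.30 for Slc7a6, which was also -0.015 under the stricter filter. With 1 replicate left out the ranges were -0.24 to 0.43 for Slc1a4, -0.20 to 0.24 for Slc7a1, -0.16 to 0.43 for Slc7a6, -0.22 to 0.13 for Slc38a9, -0.60 to 0.092 for Slc36a1os and -0.38 to 0.047 for Slc7a6os. The cause of these changes was not tested. Depth limits Slc6a18, Slc6a19, Slc7a4 and the opposite-strand genes Slc36a1os and Slc36a3os, which had few counts.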
